A study of Mus musculus with 9 samples.

Results

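The 9 genes described here encode inducible antimicrobial and regenerating-family proteins of the intestinal epithelium: the regenerating-family genes Reg1, Reg3a, Reg3b, Reg3g and Reg4, the calprotectin subunits S100a8 and S100a9, the lipocalin Lcn2 and the polymeric immunoglobulin receptor Pigr. They were chosen by symbol, not by their values, and are 9 of the 55341 genes with a row in each count file. All 9 passed the filter on low counts, which 16250 genes passed. Their levels were read in small-intestinal crypts of mice with and without Pcgf6, which encodes a component of a non-canonical Polycomb complex, in a series that asks what loss of this protein changes in adult intestinal epithelium.

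Crypts came from male C57BL/6 mice aged 8 to 12 weeks, and 9 Smart-seq2 libraries fell into 4 groups. The AhCre wild-type (WT) group (n = 2) and the AhCre Pcgf6 knockout (KO) group (n = 2) both received beta-naphthoflavone (BNF), which switches on a Cre recombinase driven by the Cyp1a1 promoter. The Villin WT (n = 3) and Villin KO (n = 2) groups both received tamoxifen, which activates the Villin-CreERT2 recombinase of intestinal epithelial cells. The driver and the inducer are therefore named for the WT libraries as well as for the KO libraries. The interval after induction is given as 15 days in the sample titles and as 7 days in a second description line. The labels do not tell whether libraries of a group stem from separate animals. The p-values therefore refer to the spread between these libraries only, which may be technical.

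Regenerating-family proteins are small secreted C-type lectin-like proteins. REG3B and REG3G are made by enterocytes and Paneth cells, are induced by bacteria through MyD88 and through interleukin-22 and STAT3 signalling, and bind or kill bacteria near the mucosal surface. Calprotectin, the heterodimer of S100A8 and S100A9, starves microbes of metal ions and is abundant in neutrophils and monocytes, whereas lipocalin 2 binds bacterial siderophores and PIGR carries dimeric IgA across the epithelium into the lumen.

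Total counts per library were 6455098 to 12377921, with every Villin library below every AhCre library, and 3 counts in a library corresponded to 0.194 to 0.615 CPM (counts relative to the TMM-scaled library total). Pcgf6 itself was at 10.1 to 14.1 CPM in AhCre WT and 5.90 to 7.20 in AhCre KO, and at 9.44 to 12.7 in Villin WT and 2.47 to 3.07 in Villin KO, so the groups did not overlap in either driver. Paired libraries of a group differed by more than counting noise, with a chi-square of 8.01 and 12.8 per degree of freedom in the AhCre groups and 50.2 to 74.7 in the Villin groups, so the Villin replicates were further apart. The epithelial label was checked on 9 epithelial identity genes, which summed to 6929 to 19106 CPM, against 14 intraepithelial T cell and innate lymphoid genes at 130.8 to 2603 CPM and 14 monocyte and macrophage genes at 105 to 915 CPM. In bulk crypt RNA, fewer cells of a type and less RNA per cell cannot be told apart.

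Reg1, Reg3a, Reg3b and Reg3g lie together with Reg2 and Reg3d in a cluster of 6 genes spanning 98.2 kb of chromosome 6 (GRCm38, 78370657 to 78468872). Reg4 lies outside it, on chromosome 3 (98222156 to 98236748, plus strand). S100a8 (90668978 to 90670035, plus strand) and S100a9 (90692632 to 90695721, minus strand) are neighbours elsewhere on chromosome 3. Lcn2 is on chromosome 2 (32384633 to 32388252, minus strand) and Pigr on chromosome 1 (130826684 to 130852249, plus strand). No member shares exon bases with another annotated gene. Coding sequences of Reg3b and Reg3g are 76% identical, those of Reg3a and Reg3b 73.3% and those of Reg1 and Reg2 78.8%. Of all 50-base words in its transcripts, Reg1 shares 3.65% and Pigr 0.458% with other genes and the other 7 members, Reg3a, Reg3b and Reg3g among them, share 0%.

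**Figure D1:**
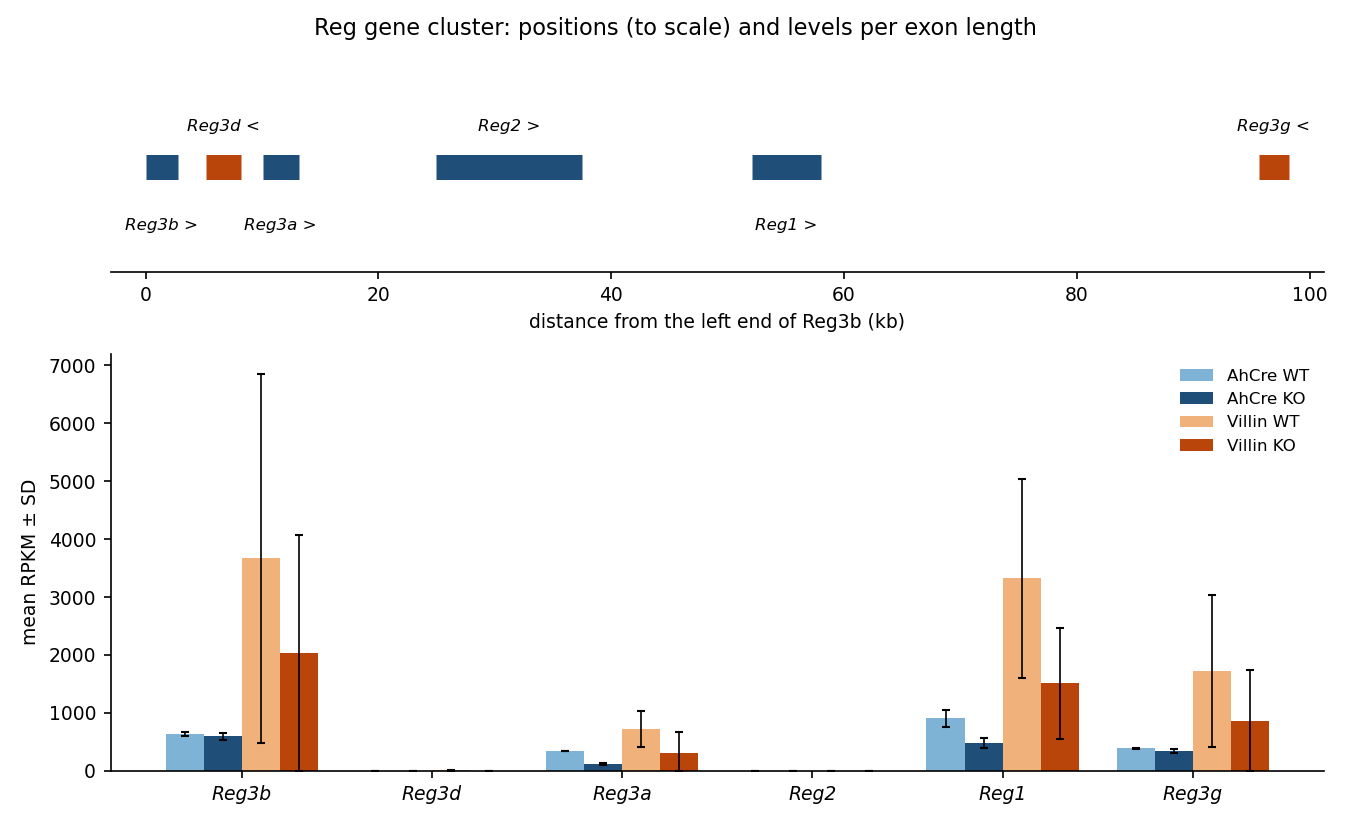
The upper panel maps the 6 Reg genes of the chromosome 6 cluster to scale in kb from the left end of Reg3b (blue, plus strand; orange, minus strand; arrowheads give the direction). The lower panel gives the mean RPKM (counts per kb of exon, scaled to library size, linear axis from 0) of each group with bars of 1 SD, cut at 0 (n = 2, and 3 in Villin WT); Reg3b, Reg1 and Reg3g stand highest, and Reg2 and Reg3d do not rise visibly above the axis.

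Promoter windows are shown for the 4 cluster members because Reg3b and Reg3g kept the same pattern over the libraries and Reg3a did not. Each runs from 250 bases before to 50 bases after the start site in RefSeq (GRCm38.p6), 5′ to 3′ on the strand of the gene. Capitals mark the letters TATAAA near the start site and, in Reg3b and Reg3g, an identical run of 29 bases that reaches from position -20 to position 9 in both.
Reg3b, chr6:78370635-78370934, plus strand: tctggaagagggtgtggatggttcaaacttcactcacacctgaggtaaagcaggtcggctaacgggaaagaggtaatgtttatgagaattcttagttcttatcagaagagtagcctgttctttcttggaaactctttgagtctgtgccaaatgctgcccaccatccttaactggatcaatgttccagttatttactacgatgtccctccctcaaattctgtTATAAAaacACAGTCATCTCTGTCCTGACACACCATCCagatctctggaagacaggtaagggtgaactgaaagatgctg
Reg3g, chr6:78468825-78469124, minus strand: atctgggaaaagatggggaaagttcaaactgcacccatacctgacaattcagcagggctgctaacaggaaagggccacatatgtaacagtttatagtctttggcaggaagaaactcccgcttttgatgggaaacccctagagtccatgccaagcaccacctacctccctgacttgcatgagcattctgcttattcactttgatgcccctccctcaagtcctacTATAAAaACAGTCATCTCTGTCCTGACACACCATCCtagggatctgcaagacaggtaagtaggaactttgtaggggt
Reg1, chr6:78425733-78426032, plus strand: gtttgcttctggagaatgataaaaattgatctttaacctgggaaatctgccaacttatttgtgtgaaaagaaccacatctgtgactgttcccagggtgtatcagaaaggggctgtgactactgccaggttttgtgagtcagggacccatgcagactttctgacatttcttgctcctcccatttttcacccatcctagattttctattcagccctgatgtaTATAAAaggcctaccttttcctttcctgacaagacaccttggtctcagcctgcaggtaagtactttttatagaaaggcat
Reg3a, chr6:78380459-78380758, plus strand: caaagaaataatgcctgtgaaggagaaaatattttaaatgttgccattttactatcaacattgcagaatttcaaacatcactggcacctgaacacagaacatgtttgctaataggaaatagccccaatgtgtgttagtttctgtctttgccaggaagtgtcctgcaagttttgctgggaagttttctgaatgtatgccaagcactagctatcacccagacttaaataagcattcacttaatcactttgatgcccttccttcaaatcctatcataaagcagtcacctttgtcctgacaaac

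Aligned over these 300 bases, the Reg3b and Reg3g windows were 68.1% identical, against 37.8% to 52.4% for the other 35 pairs of members. In all, 4 motifs were searched on both strands. TATAAA was found in 5 of the 9 windows (Reg1, Reg3b, Reg3g, S100a8 and S100a9), and in 13.6% of all 32851 promoter windows. It begins at position -30 in Reg1, -29 in Reg3b and -27 in Reg3g, with a further copy on the other strand in Reg1 (36) and Reg3g (-161). The STAT-type letters TTCNNNGAA were found in 2 windows, Reg3b at position -129 and Pigr at position 40, against 8.3% of all windows. The E-box CACGTG was found in Pigr alone (position -71, 7.15% of all windows) and the E2F-type letters TTCCCGC in 0 of 9 (4.6% of all windows). A match is a description of letters and not a bound site.

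Per exon length the 9 genes spanned from abundant to barely detected. The mean RPKM over the 4 groups was 1733 for Reg3b, 1553 for Reg1, 826 for Reg3g, 709.7 for Pigr, 371 for Reg3a, 349 for Reg4, 6.45 for S100a8, 5.48 for S100a9 and 0.247 for Lcn2. The order was the same with the length of the longest annotated transcript. Reg3b and Reg1 did not differ beyond their spread in Villin WT, where Reg3b stood at 3673 ± 3188 RPKM (SD, n = 3) and Reg1 at 3322 ± 1716. In AhCre WT the order of that pair was the other way round, with 629 ± 34.4 RPKM for Reg3b and 906 ± 143 for Reg1 (n = 2). Reg3a and Reg4, at 344 ± 3.21 and 266 ± 32.4 RPKM in AhCre WT, changed places in AhCre KO, at 113 ± 12.9 and 620.2 ± 84.0.

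Most members varied more over the 9 libraries than most genes did. The SD of log2 CPM (pseudocount 0.5 CPM) over the libraries was 1.13 to 1.41 for the 5 Reg genes, S100a8 and S100a9. This lies at the 93.1 to 97.4 percentile of all tested genes. Pigr (0.61) and Lcn2 (0.59) stood near the middle, at percentiles 49.9 and 46. For Lcn2, at 0.205 to 2.16 CPM, the pseudocount damps this spread. Its CPM spanned 10.5-fold, against 3.28-fold for Pigr and 11.1-fold for Reg1.

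**Figure D2:**
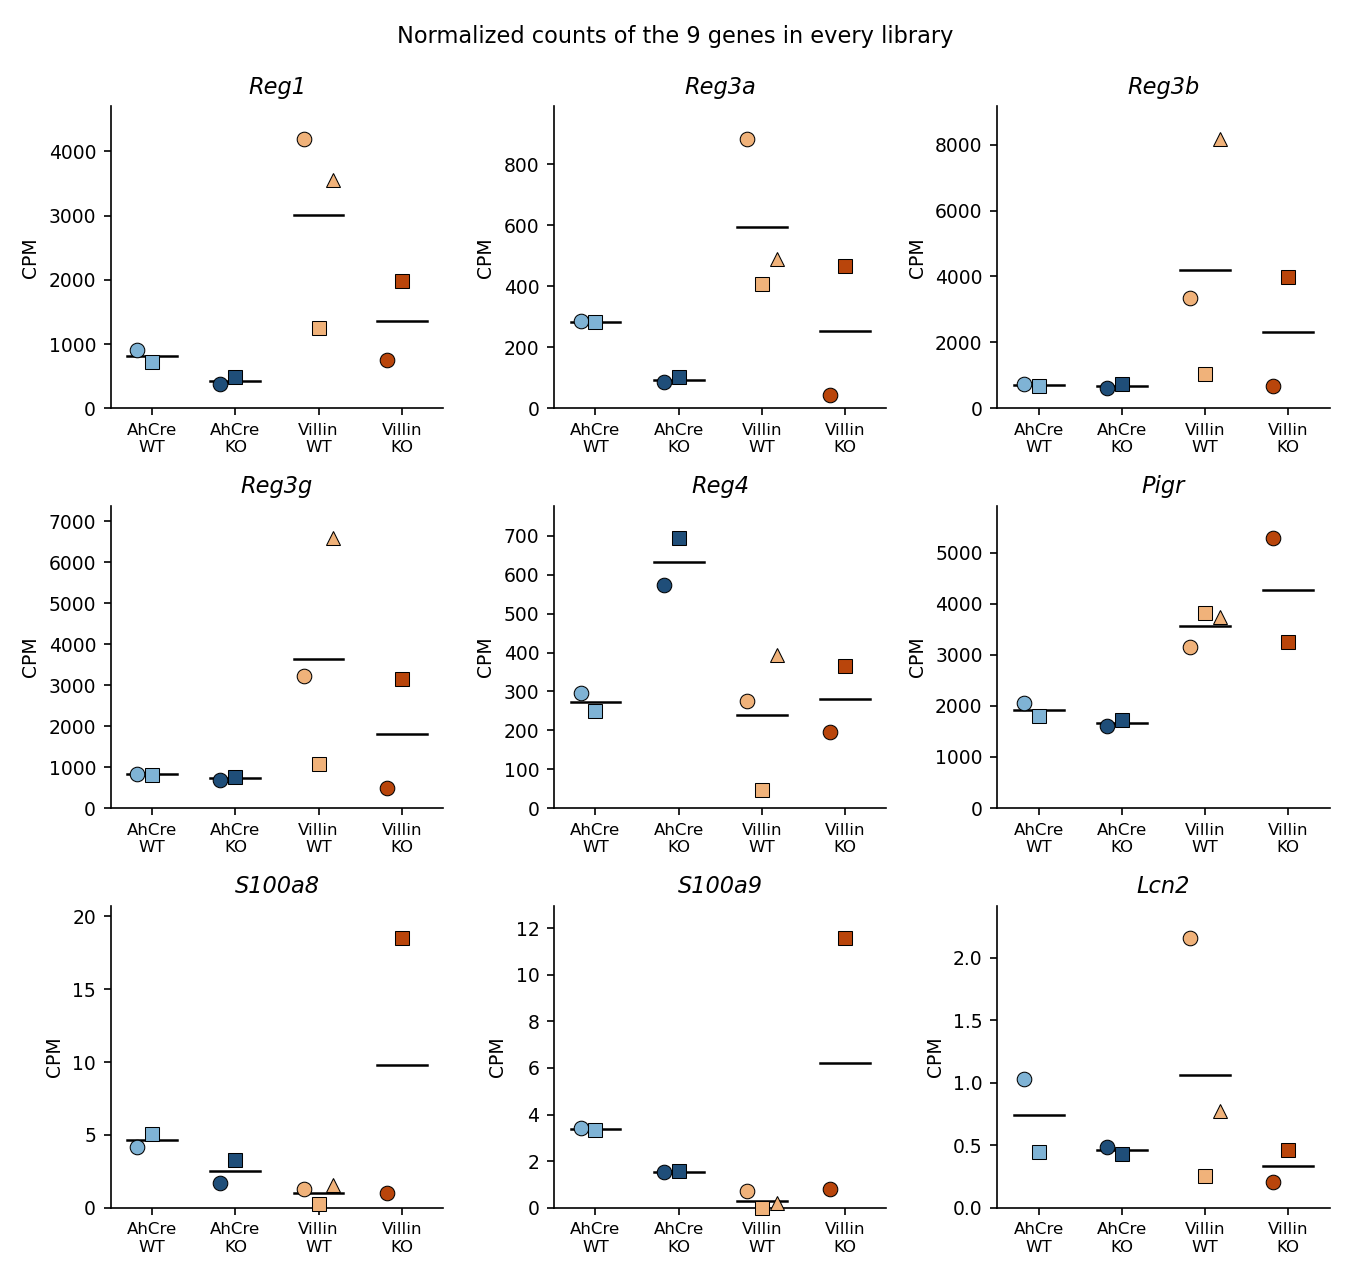
CPM (TMM-scaled, linear axes from 0, a scale per panel) of each of the 9 genes in every library. Circles, squares and triangles are replicates 1, 2 and 3 and black lines are group means; Reg3a and Reg1 are lower and Reg4 higher in both AhCre KO libraries than in both AhCre WT libraries, and S100a8 and S100a9 are high in a single Villin KO library.

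In AhCre crypts, Reg3a and Reg1 were lower and Reg4 higher in both KO libraries, and Reg3b and Reg3g were nearly level. In Villin crypts the 4 cluster members were lower in KO on average but their libraries overlapped, and S100a8 and S100a9 were high in 1 KO library. With edgeR's quasi-likelihood test over all 9 libraries and Benjamini-Hochberg adjustment, 1 of the 9 members was called at an adjusted p under 0.05 in Villin (S100a9, higher) against 6.21% of all tested genes. In AhCre 0 of 9 were called, against 0.00615% of all genes, with 0 at an unadjusted p under 0.05. DESeq2 also called 0 of 9 in AhCre (background 0.455%), and limma-voom with sample weights called 3 (background 5.61%). The shared fit takes its spread from all groups, and the AhCre replicates lay closer together than the Villin replicates. A fit of the 4 AhCre libraries alone called the same 3 members as limma-voom, Reg1, Reg3a and Reg4, where 6.43% of genes were called. A fit of 1 driver has few residual degrees of freedom, which is why the main fit used all libraries. Small p-values from such a fit rest on the closeness of very few libraries. Over the 9 members the median log2 fold change was -0.68 in AhCre, beside -0.0048 over all tested genes, and -0.85 in Villin, beside -0.18.

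Groups that did not overlap were counted in the same way. In AhCre, both KO libraries lay below both WT libraries for 6 members (Reg1, Reg3a, Reg3g, S100a8, S100a9 and Pigr), where 25.1% of all tested genes did so. They lay above for 1 member (Reg4), where 23.4% did so, and overlapped for Reg3b and Lcn2. In Villin, 0 members lay below (background 19.8%), 1 lay above (S100a9, background 14.5%) and 8 overlapped.

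Reg3a, a secreted lectin of the same subfamily as Reg3b and Reg3g, showed the largest AhCre difference among the Reg members. It stood at 286 and 282 CPM in AhCre WT and at 85.9 and 101 CPM in AhCre KO. The KO mean was 32.9% of the WT mean, and the groups did not overlap. The log2 fold change was -1.60 (SE 0.75), with an adjusted p of 1 in edgeR over all libraries, and -1.58 (SE 0.16), with an adjusted p of 2.80e-06, in the AhCre libraries alone. In Villin it stood at 883, 406 and 489 CPM in WT and at 43.6 and 465 CPM in KO. Villin KO 1 was the lowest of all 9 libraries, and Villin KO 2 lay within the WT range. The Villin log2 fold change was -1.22 (SE 0.69, edgeR adjusted p = 0.283). Leaving out Villin KO 2 gave -3.77 with an edgeR adjusted p of 0.00262, and Reg3a and Reg3g were then the 2 members called in Villin (background 11.0%).

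Reg1, a regenerating-family growth factor first described in pancreas, stood at 911 and 728 CPM in AhCre WT and at 379 and 485 CPM in AhCre KO. The groups did not overlap, and the KO mean was 52.7% of the WT mean. The log2 fold change was -0.92 (SE 0.56, edgeR adjusted p = 1), and -0.90 (SE 0.17, edgeR adjusted p = 0.00274) in the AhCre libraries alone. In Villin it stood at 4198, 1250.5 and 3561 CPM in WT and at 749 and 1974 CPM in KO. The KO library with the higher level lay above the lowest WT library. The Villin log2 fold change was -1.14 (SE 0.52), with an unadjusted p of 0.0497 and an edgeR adjusted p of 0.191. In the Villin libraries alone it was -0.996 (SE 0.59, edgeR adjusted p = 0.414), a fit in which 0 of the 6 members it could test were called (background 1.89%).

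Reg3b, highest per length in the mean over the 4 groups but below Reg1 in AhCre WT, barely moved in AhCre, with 746 and 691 CPM in WT and 621 and 729 CPM in KO. These groups overlapped, and the log2 fold change was -0.09 (SE 0.81 over all libraries). The fit of the AhCre libraries alone gave -0.07 (SE 0.15, edgeR adjusted p = 0.863). In Villin, Reg3b stood at 3351, 1050.5 and 8183 CPM in WT and at 680.4 and 3975 CPM in KO. The WT libraries alone spanned 7.79-fold and the KO libraries 5.84-fold. The log2 fold change was -0.85 (SE 0.76, edgeR adjusted p = 0.503).

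Reg3g, which encodes a lectin that binds peptidoglycan of Gram-positive bacteria, followed Reg3b. It stood at 836 and 811 CPM in AhCre WT and at 673 and 768 CPM in AhCre KO, and the log2 fold change was -0.19 (SE 0.77, edgeR adjusted p = 1). It stood at 3218, 1077 and 6582 CPM in Villin WT and at 495 and 3137 CPM in Villin KO, and the log2 fold change was -0.997 (SE 0.73, edgeR adjusted p = 0.408). The AhCre groups did not overlap by a narrow margin, and the Villin groups overlapped.

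The pair stayed close in every library: counts of Reg3b over counts of Reg3g ranged from 0.852 in AhCre WT 2 to 1.37 in Villin KO 1, while each gene spanned 13.2-fold (Reg3b) and 13.3-fold (Reg3g). Reg3a left this pattern. Its counts were 0.383 and 0.409 of those of Reg3b in AhCre WT and 0.138 and 0.139 of them in AhCre KO. In Villin the same ratio was 0.264, 0.387 and 0.0597 in WT and 0.0641 and 0.117 in KO, so WT and KO overlapped there. Counts of Reg1 over those of Reg3b likewise went from 1.22 and 1.05 in AhCre WT to 0.611 and 0.665 in AhCre KO, with overlap in Villin (0.435 to 1.25 in WT, 0.497 and 1.101 in KO).

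**Figure D3:**
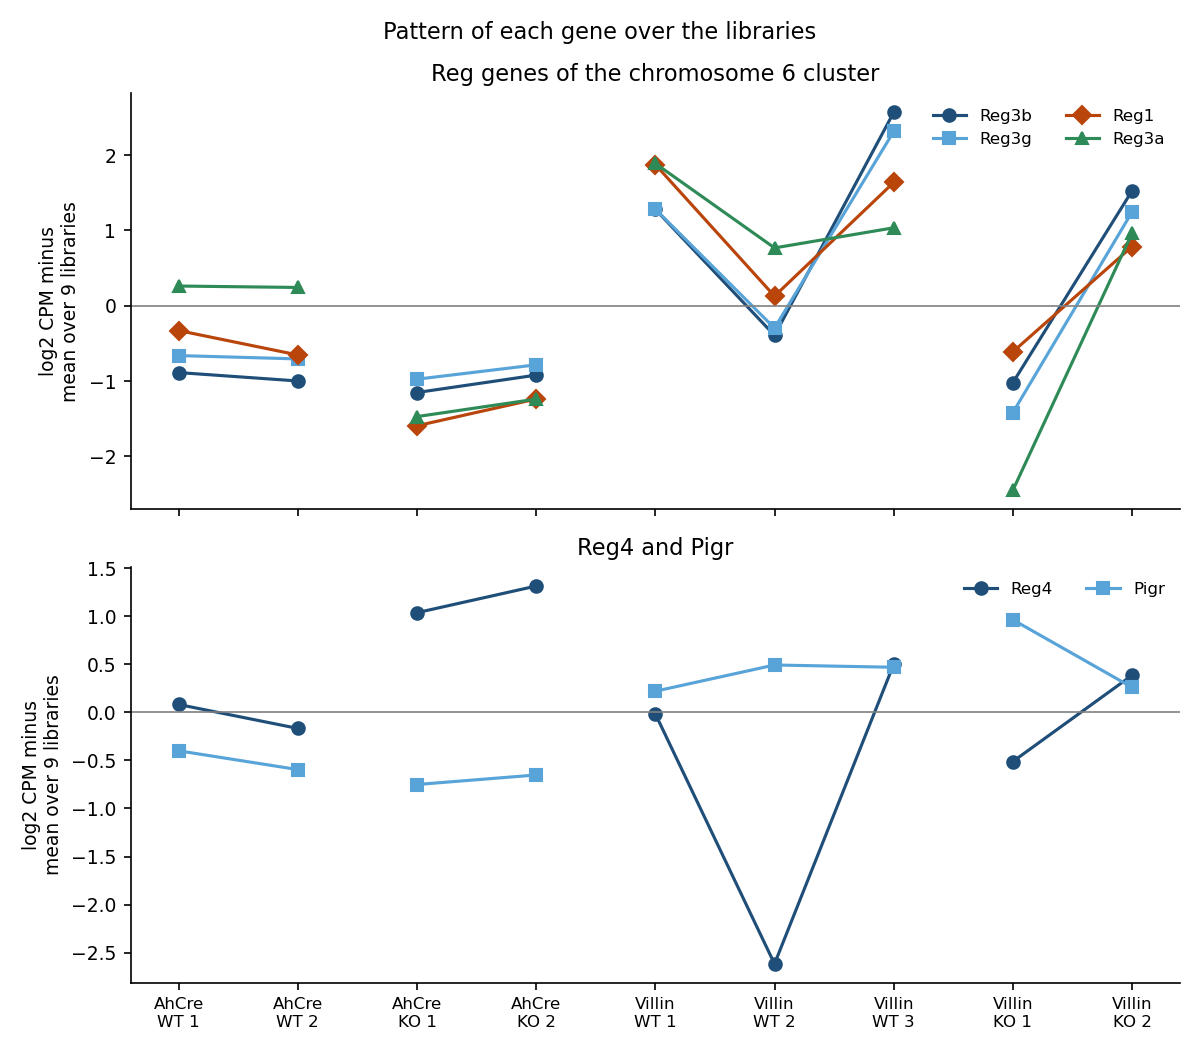
log2 CPM of each gene minus its mean over the 9 libraries, by library, with lines that only join libraries of a group (replicates have no order). Reg3b and Reg3g move together, Reg3a and Reg1 sit lower in AhCre KO than in AhCre WT, and Reg4 sits higher there. Pigr varies least of the genes drawn.

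Patterns over the 9 libraries were compared by the root mean square difference of centred log2 CPM (pseudocount 0.5 CPM) among 12694 genes with a mean of at least 1 CPM. Reg3b and Reg3g were each other's nearest gene, at 0.23. The next nearest were the T cell receptor constant gene Trbc1 and Actn2 for Reg3b, and the interferon-inducible gene Mndal and the T cell surface gene Cd6 for Reg3g. Tex12, the chemokine gene Ccl20 and Casp4 were nearest to Reg1 (0.35 to 0.38), and Ocm, Ikzf2 and Cysltr2 to Reg3a (0.47 to 0.58). These distances describe the libraries and carry no test.

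Summed markers of other cells followed Reg3b and Reg3g only in part over the Villin libraries. Intraepithelial T cell and innate lymphoid markers (14 genes) summed to 495.9, 130.8 and 2603 CPM in Villin WT and to 362 and 2372 CPM in Villin KO. Gzma alone gave 1607 CPM of the sum in Villin WT 3 and 1256 CPM of that in Villin KO 2. Paneth cell markers (14 genes) summed to 10310.4, 2634 and 19220.1 CPM in Villin WT and to 4461 and 11237 CPM in Villin KO. Villin WT 3, highest in Reg3b, was highest in both lists, and Villin KO 2, second in Reg3b, was second in Paneth and in lymphoid markers. Reg1 and Reg3a did not keep this order, since both were highest in Villin WT 1. At the low end, Reg3b and Reg3g were lowest in Villin KO 1 but both lists in Villin WT 2. Of 13 lymphoid markers with counts in Villin, 6 were highest in Villin WT 3 and 7 in Villin KO 2. Of 14 Paneth markers 9 were highest in Villin WT 3, 3 in Villin KO 1 and 1 in Villin KO 2. In AhCre the lymphoid markers summed to 421 and 429 CPM in WT and to 281 and 335 CPM in KO, and none of the 13 tested genes passed there. Of the 14 lymphoid markers at most 1 was at 0 in any library. The part of these cells in the Reg levels was not tested.

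Reg4, a family member outside the cluster that is made by secretory cells of the crypt, went the other way in AhCre. It stood at 295 and 249 CPM in AhCre WT and at 573 and 694 CPM in AhCre KO. The KO mean was 233% of the WT mean, and the groups did not overlap. The log2 fold change was 1.22 (SE 0.69, edgeR adjusted p = 1), and 1.24 (SE 0.16, edgeR adjusted p = 7.14e-05) in the AhCre libraries alone. In Villin it stood at 276, 45.5 and 395 CPM in WT and at 196 and 365 CPM in KO. Those groups overlapped, with Villin WT 2 far below the rest, and the log2 fold change was 0.23 (SE 0.62, edgeR adjusted p = 0.841).

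The gene nearest to Reg4 in pattern was the Paneth and goblet cell lectin Itln1 (0.25), followed by Fxyd6 and the Paneth-cell-expressed colipase gene Clps (0.49). Itln1 stood at 1924 and 1744 CPM in AhCre WT and at 3852 and 4147 CPM in AhCre KO, and Villin WT 2 was its lowest library too, at 303 CPM. Paneth markers summed to 9189 and 8268 CPM in AhCre WT and to 15555 and 16614 CPM in AhCre KO, and 0 of the 14 had a count of 0 in any library. Their median log2 fold change was 0.89 in AhCre and -0.71 in Villin, and none of the 14 passed the edgeR test in either driver. Among them Lyz1, which encodes Paneth cell lysozyme, had log2 fold changes of 0.44 and -1.06 and the defensin Defa24 of 0.77 and -0.46 in AhCre and Villin. The part of Paneth cells in the Reg4 level was not tested.

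The cluster genes outside the 9 were barely expressed. Reg3d had 26 and 10 counts in AhCre WT against 5 and 8 in the KO, and 19, 18 and 12 counts in Villin WT against 0 and 4 in the KO. Both KO groups lay below their WT group, and the log2 fold change was -2.92 in Villin (SE 0.88, edgeR adjusted p = 0.0658) and -1.14 in AhCre (SE 0.77, edgeR adjusted p = 1). Reg2 had 0 to 8 counts in a library and was not tested.

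S100a9 was the single member called. In Villin it had 4, 0 and 1 counts in WT, and 4 and 75 counts in KO. In CPM these were 0.719, 0 and 0.193 in WT and 0.819 and 11.6 in KO, so Villin KO 1 was close to the highest WT library and Villin KO 2 was alone in being high. The low-count filter removed S100a9 and S100a8 from the fit of the Villin libraries alone, so that fit did not test them. Over all libraries the log2 fold change of S100a9 was 4.43 (SE 1.06, edgeR adjusted p = 0.0334). Leaving out Villin KO 2 gave 1.51 with an edgeR adjusted p of 0.428, and leaving out Villin KO 1 gave 5.34 with an edgeR adjusted p of 0.0258, a fit in which 0.405% of genes were called. Without any 1 of the 7 other libraries the edgeR adjusted p was 0.0556 to 0.0786. In AhCre it stood at 3.42 and 3.36 CPM in WT (53 and 45 counts) and at 1.54 and 1.56 CPM in KO (19 and 18 counts), which did not overlap. The AhCre log2 fold change was -1.12 (SE 0.93, edgeR adjusted p = 1), and -1.11 (SE 0.35, edgeR adjusted p = 0.0674) in the AhCre libraries alone.

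S100a8, its partner in calprotectin, had the same shape. It had 7, 2 and 8 counts in Villin WT (1.26, 0.257 and 1.54 CPM) and 5 and 120 counts in Villin KO (1.02 and 18.5 CPM). Those groups overlapped, and the log2 fold change was 3.33 (SE 0.93, edgeR adjusted p = 0.0528). Without Villin KO 2 it was 0.08 (edgeR adjusted p = 0.967), and without Villin KO 1 it was 4.26 (edgeR adjusted p = 0.0258). In AhCre it stood at 4.20 and 5.07 CPM in WT and at 1.70 and 3.30 CPM in KO, with a log2 fold change of -0.89 (SE 0.92, edgeR adjusted p = 1). The 2 genes were each other's nearest in pattern, at 0.41. The next nearest to S100a8 were Htra3 (0.45), a secreted serine protease gene, and the phospholipid transfer protein gene Pltp (0.49). The next nearest to S100a9 were Clec4e (0.45), a pattern receptor of myeloid cells, and Dpep2 (0.54).

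The difference between the drivers' KO effects was tested directly. It was -5.55 on the log2 scale for S100a9 (SE 1.43, edgeR adjusted p = 0.146) and -4.22 for S100a8 (SE 1.32, edgeR adjusted p = 0.189). Of the 9 members 0 were called by edgeR (background 0.0738%) and 2 had an unadjusted p under 0.05. DESeq2 called 2, S100a8 and S100a9 (background 2.34%), and limma-voom 0 (background 0.886%). In Villin itself DESeq2 called the same pair (background 10.8%) and limma-voom called 0 (background 0.849%).

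**Figure D4:**
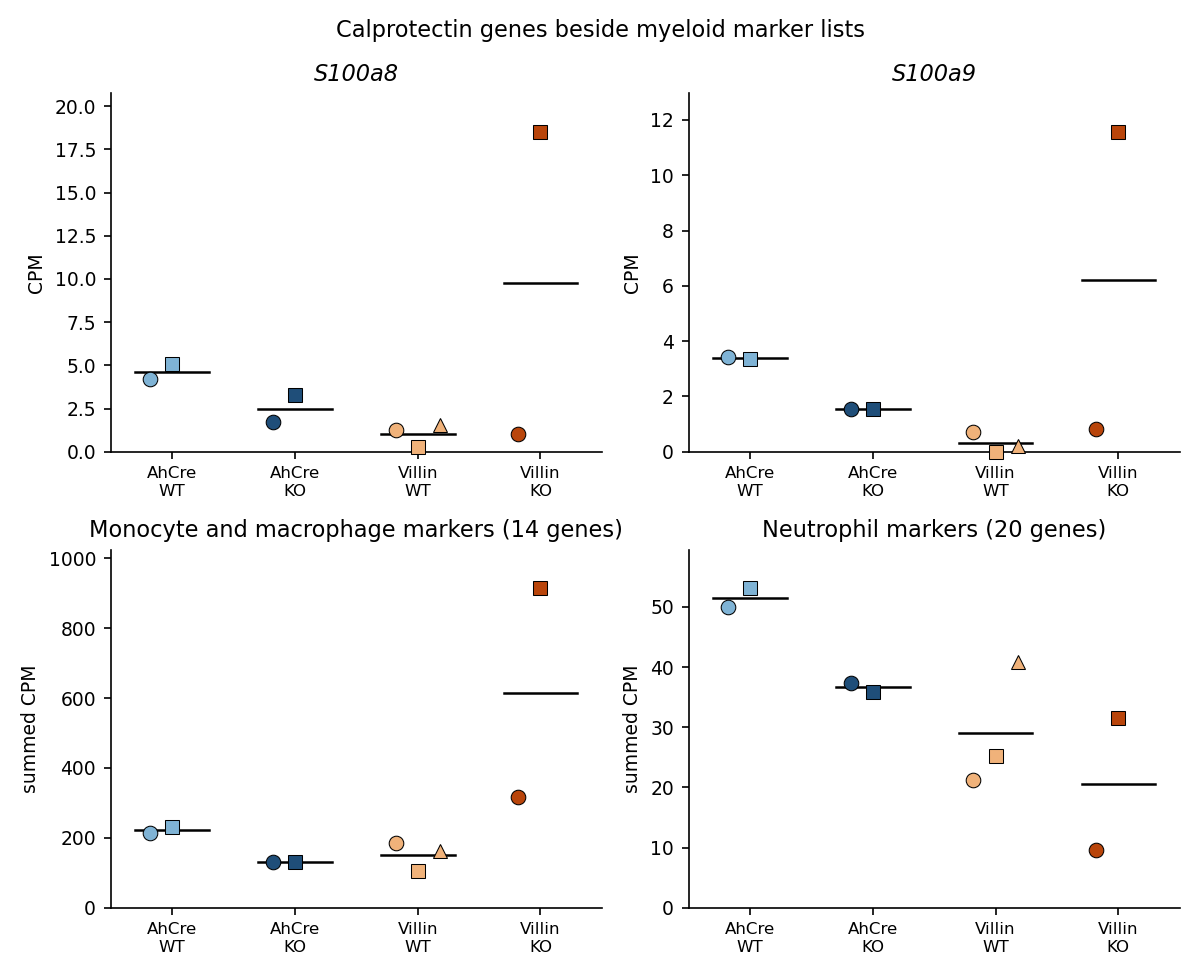
CPM of S100a8 and S100a9 and summed CPM of 14 monocyte and macrophage markers and 20 neutrophil markers in every library (linear axes from 0; circles, squares and triangles are replicates 1, 2 and 3; lines are group means). Villin KO 2 is the highest library for both calprotectin genes and for the monocyte and macrophage markers, at 915 CPM; it is not the highest for the neutrophil sum, which Cd177 dominates in most libraries, but it is without Cd177 (21.6 CPM).

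Monocyte and macrophage markers summed to 215 and 231 CPM in AhCre WT against 130.1 and 131 CPM in the KO, and to 185, 105 and 161 CPM in Villin WT against 317 and 915 CPM in the KO. Of the 14 genes, 11 had their highest level among the 5 Villin libraries in Villin KO 2. There C1qb, a complement component of tissue macrophages, reached 41.3 CPM against 0.641 to 8.40 CPM in the other Villin libraries. Ccr2, the chemokine receptor of recruited monocytes, reached 11.9 CPM against 0.385 to 1.44 CPM. Without the lysozyme gene Lyz2, which alone gave 615 CPM, the sum in Villin KO 2 was 301 CPM beside 252 CPM in Villin KO 1. Of the latter Mertk alone gave 200.4 CPM, and it stood at 51.6, 68.9 and 58.6 CPM in Villin WT. Only Mertk, a phagocytic receptor, passed the edgeR test in Villin among the 13 tested, where 6.21% of all tested genes were called. Its log2 fold change was 1.53 (edgeR adjusted p = 0.0157). Mertk was higher in Villin KO 1 (200.4 CPM) than in Villin KO 2 (144 CPM).

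Neutrophil markers summed to 49.9 and 53.2 CPM in AhCre WT against 37.4 and 35.8 CPM in the KO, and to 21.2, 25.3 and 40.8 CPM in Villin WT against 9.63 and 31.5 CPM in the KO. Cd177, a surface protein of neutrophils, gave 38.7 and 41.7 CPM of the sums in AhCre WT but 9.87 CPM in Villin KO 2. In AhCre WT 1 it had 600 counts, where the neutrophil genes Ly6g, Mpo and Elane had 5, 7 and 0. Which cells gave the Cd177 counts was not tested. Without Cd177, Villin KO 2 had the highest sum of all 9 libraries, at 21.6 CPM, against 3.72 to 11.6 CPM in the others. In Villin KO 2 the defining genes Ly6g, Mpo and Elane were at 0 counts, and each had 0 to 2 counts in the other Villin libraries. The granule protein genes Ngp and Camp had 3 and 4 counts there and 0 in the other Villin libraries. Clec4d, a myeloid lectin receptor, reached 6.02 CPM in Villin KO 2 against 0 to 1.26 CPM in the other Villin libraries. The gelatinase gene Mmp9 reached 3.39 CPM there against 0 to 0.719 CPM. In Villin KO 2, 4 of the 20 markers were at 0, against 10 or 11 in each of the other Villin libraries. Of the 19 with any count in Villin, 8 had their highest level there in Villin KO 2 and 6 in Villin WT 3. Cd177 fell in Villin, with a log2 fold change of -1.57 (edgeR adjusted p = 0.0467). It was the single gene of the 6 tested to pass, where 6.21% of all tested genes were called. The part of myeloid cells in the S100a8 and S100a9 levels was not tested.

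Lcn2, the epithelial and neutrophil siderophore-binding protein, was close to the detection limit. It had 16 and 6 counts in AhCre WT against 6 and 5 in the KO, and 12, 2 and 4 counts in Villin WT against 1 and 3 in the KO. The groups overlapped in both drivers, and the log2 fold changes were -0.68 (SE 0.88, edgeR adjusted p = 1) in AhCre and -1.52 (SE 1.02, edgeR adjusted p = 0.368) in Villin. In Villin, 3 of the 5 libraries held 3 counts or fewer, and neither difference exceeded the spread between libraries.

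Pigr was the steadiest of the abundant members. It stood at 2053 and 1793 CPM in AhCre WT and at 1610.5 and 1725 CPM in AhCre KO. These groups did not overlap, and the log2 fold change was -0.21 (SE 0.36, edgeR adjusted p = 1). In Villin it stood at 3155, 3812 and 3749.8 CPM in WT and at 5281 and 3245 CPM in KO. Those groups overlapped, and the log2 fold change was 0.25 (SE 0.32, edgeR adjusted p = 0.651). Nearest to it in pattern were Tbc1d23, Crebrf and Mfap3, at 0.16 to 0.17.

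**Figure D5:**
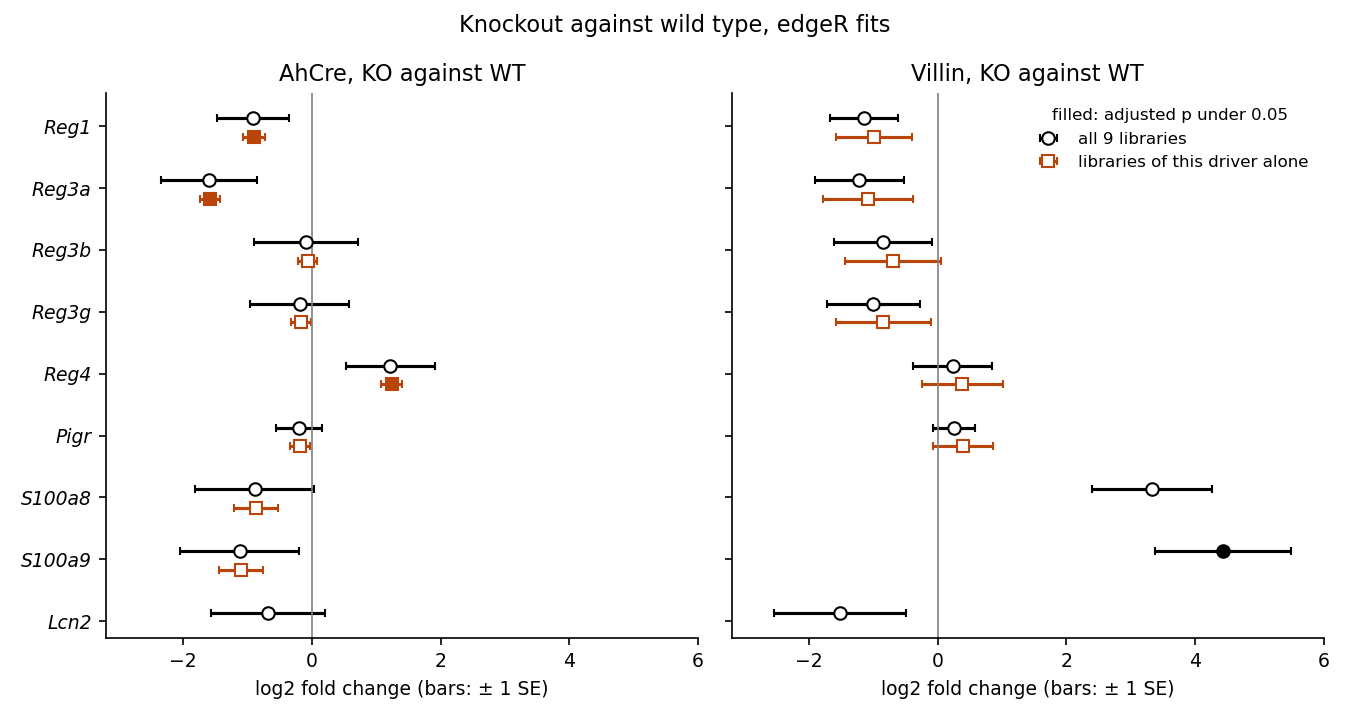
log2 fold change (KO against WT) of each of the 9 genes with bars of 1 SE, for AhCre on the left and Villin on the right. Circles come from the edgeR fit of all 9 libraries and squares from a fit of that driver's libraries alone. Lcn2 has no square in either driver, and S100a8 and S100a9 have none in Villin, because those fits did not test them. Filled symbols have an adjusted p under 0.05. S100a9 is filled in Villin, and Reg1, Reg3a and Reg4 are filled in AhCre in the AhCre fit.

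On average over both drivers the log2 fold change was -1.41 for Reg3a (SE 0.51, edgeR adjusted p = 0.233) and -1.03 for Reg1 (SE 0.38, edgeR adjusted p = 0.250). The other Reg members gave -0.60 (Reg3g), -0.47 (Reg3b) and 0.73 (Reg4). Averages for S100a8 (1.22) and S100a9 (1.65) combine opposite signs, and Pigr stood at 0.02. Of the 9, edgeR called 0 (background 1.17%) with 3 at an unadjusted p under 0.05. DESeq2 called 0 (background 2.70%), and limma-voom called 1, Reg3a (background 1.64%).

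The WT libraries of both drivers were also compared with each other. Both AhCre WT libraries lay below all 3 Villin WT libraries for 5 members (Reg1, Reg3a, Reg3b, Reg3g and Pigr), where 23.8% of all tested genes did so. They lay above for 2 members (S100a8 and S100a9), where 26.5% did so. AhCre WT minus Villin WT was -2.55 on the log2 scale for Reg3b (SE 0.82, edgeR adjusted p = 0.0712), -2.14 for Reg3g (SE 0.77, edgeR adjusted p = 0.0952), -1.87 for Reg1 (SE 0.54, edgeR adjusted p = 0.0540) and -0.89 for Pigr (SE 0.33, edgeR adjusted p = 0.105). S100a9 was higher in AhCre WT, at 3.54 (SE 1.06, edgeR adjusted p = 0.0590). Of the 9 members edgeR called 0 (background 7.58%) with 6 at an unadjusted p under 0.05. DESeq2 called 5 (background 14.0%) and limma-voom called 5 (background 23.8%), in both cases Reg1, Reg3b, Reg3g, S100a9 and Pigr. Driver, inducer and sequencing depth change together between these groups and cannot be told apart.

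Genes of the pathway that induces the Reg3 genes were read from a list of 22 receptors, kinases and targets of interleukin-22, interleukin-17 and STAT3 signalling, 18 of them tested. In Villin 2 of 18 rose and 0 fell, where 6.21% of all tested genes were called, with a median log2 fold change of 0.49 beside -0.18 over all genes. Socs3, a STAT3 target that feeds back on the pathway, stood at 15.1, 20.3 and 29.3 CPM in Villin WT and at 70.5 and 66.8 CPM in Villin KO (log2 fold change 1.67, SE 0.34, edgeR adjusted p = 0.0188). Il10rb, the shared chain of the interleukin-10 and interleukin-22 receptors, had a log2 fold change of 1.17 (SE 0.29, edgeR adjusted p = 0.0358). Both Villin KO libraries were above all Villin WT libraries for these 2 genes, including Villin KO 1, the lowest Villin library for Reg3a, Reg3b and Reg3g. In AhCre 0 of 18 passed and the median was 0.01, with Socs3 at -0.17 and Il10rb at 0.01. Among the ligand genes Il22 had 0 to 2 counts in a library and Il17a had 0 in all 9, where 3 counts would correspond to 0.194 to 0.615 CPM. Osm had 0 to 5 counts, with the 5 in Villin KO 2. Il6 had 17 and 10 counts in AhCre WT (1.10 and 0.746 CPM) against 0 and 2 in AhCre KO, and 0 to 3 counts in the Villin libraries.

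Genes of microbial sensing, a list of 20 that were all tested, gave 0 that passed in AhCre, in Villin or on average. The inflammasome adaptor Pycard had log2 fold changes of 0.09 in AhCre and -1.37 in Villin (edgeR adjusted p = 0.0864), and the sensor Nlrp6 of -0.15 and -0.48.

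Other inducible epithelial defence genes (21 listed, 18 tested) showed changes in both directions. In Villin 3 rose and 1 fell (6.21% of all tested genes called), and on average 4 rose and 0 fell (1.17%), beside a median of 0.24 in Villin and 0.12 on average. Duox2 and its maturation factor Duoxa2, which make hydrogen peroxide at the mucosal surface, rose in Villin by log2 fold changes of 3.66 (SE 0.69, edgeR adjusted p = 0.0157) and 3.95 (SE 0.73, edgeR adjusted p = 0.0142). Nos2, the inducible nitric oxide synthase, fell there by 2.50 on the log2 scale (SE 0.52, edgeR adjusted p = 0.0210). Fut2 rose in Villin and on average and Retnlb on average, both named after their values were seen. In AhCre 0 of 18 passed, with Duox2 at 2.41 and Duoxa2 at 2.81 and with both KO libraries above both WT libraries for each. Duox2 was highest in Villin KO 1 (1127 CPM, against 134 CPM in Villin KO 2), the Villin KO library with the lower level of each of the 5 Reg members. A link between Duox2 and the Reg members was not tested.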

How the data were processed

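Small-intestinal crypt RNA (2 ng per library) was sequenced after Smart-seq2, which does not mark strand, per the labels' protocols. The authors deposited 1 table of gene-level counts per library (9 in all), whole numbers without normalization. STAR 2.7, featureCounts and DESeq2 1.20 with mm10 or GRCm38 are named in the submitters' processing notes. What each tool did, and whether counting used strand, is not stated there. Gene symbols (100% matched) were looked up in GENCODE M21 (GRCm38) for coordinates and exon lengths. Groups were taken from the titles, although a description of the Villin libraries gives BNF in place of tamoxifen.

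Counts of all 55341 genes were fitted in R 4.3.3 with edgeR 4.0.16: filterByExpr left 16250, libraries were scaled by TMM, and a quasi-likelihood model with 4 group means was fitted to 9 libraries (degrees of freedom 5 residual and 7.43 prior; biological coefficient of variation 0.332). Calls were made at a Benjamini-Hochberg adjusted p under 0.05 over all tested genes. The standard error is the absolute log2 fold change divided by the square root of F. The TMM factors differed between drivers, 1.22 to 1.27 in AhCre and 0.684 to 1.12 in Villin. CPM and RPKM use these factors, with the union of exons as length. Alternatives used DESeq2 1.42.0 and limma 3.58.1, other filters and scaling, each driver alone, a replicate block and each library left out. The test procedure was run on simulated data with the same spread for all genes and groups. It therefore does not show how the test acts where replicates spread unequally, as they did here.

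Named were the 9 members, Reg2 and Reg3d, up to 3 called genes of each list by smallest adjusted p or otherwise the 2 with the highest mean CPM, and the 3 genes nearest in pattern to each member. Other list genes given as examples (C1qb, Ccr2, Lyz2, Gzma, Ly6g, Mpo, Elane, Ngp, Camp, Clec4d, Mmp9, Itln1, Il22, Il17a, Il6, Osm, Fut2, Retnlb) were chosen after their values were seen. The members and lists were chosen with earlier results of these data known. Further lists (plasma and B cell, goblet, enteroendocrine, absorptive enterocyte, tuft, stem cell and small-intestine region) were counted in the same fit. Promoter sequences are those of RefSeq; protein sequences were not used here.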

Additional observations from a re-analysis of the deposited data

Results flagged for a closer look

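Among the genes of the fixed lists, the difference between the KO effects of both drivers passed the edgeR test for Slc2a5, the fructose transporter of enterocytes. It stood at 83.5 and 77.9 CPM in AhCre WT and at 47.3 and 50.1 CPM in AhCre KO, and at 161, 208 and 146 CPM in Villin WT and 1837 and 804 CPM in Villin KO. The difference (AhCre minus Villin) was -3.67 on the log2 scale (SE 0.54, edgeR adjusted p = 0.0346), the KO effect being -0.73 in AhCre and 2.94 in Villin. None of the 9 members passed this test (edgeR, with 2 at an unadjusted p under 0.05 and 2 called by DESeq2).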

How the results depend on the processing

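Member log2 fold changes were recomputed 724 times over 45 member results: 640 kept direction and side of the threshold, 50 newly passed it, 11 no longer passed and 23 changed sign, and the cause was not tested. Members called numbered, in AhCre (0 with all libraries), 1 without the low-count filter, 3 with limma-voom and 3 in the fit of AhCre alone. In Villin (1) they were 2 with DESeq2 size factors, 3 without the filter and 2 with DESeq2. They were 0 with limma-voom, with a replicate block and without any 1 of the Villin WT libraries. The fit of Villin alone also called 0, but its low-count filter removed S100a8, S100a9 and Lcn2, so it did not test them. On average (0) they were 2 without the filter, 1 with limma-voom and 0 to 1 with a library left out; for the driver difference (0), 2 without the filter and 2 with DESeq2; for the WT groups (0), 5 without the filter, 5 with DESeq2, 5 with limma-voom and 0 to 5 with a library left out. S100a8 and S100a9 rest on Villin KO 2, and Reg3a and Reg3g were called in Villin without it.

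Genes called in AhCre (1) were 137 without the filter, 74 with DESeq2, 911 with limma-voom, 1046 in AhCre alone and 1 to 64 with a library left out. In Villin (1009) they were 1591, 1749, 138, 259 in Villin alone and 73 to 1949. On average (190) they were 538 without the filter, 438 with DESeq2 and 2 to 757; for the difference (12), 340, 380, 144 with limma-voom and 0 to 415; for the WT groups (1231), 2290, 2278, 3860 and 8 to 3030.

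Same-numbered libraries deviated from their group means with correlations of -0.133 (AhCre), 0.0702 and -0.209 (Villin), so the numbers were not taken to pair them. A replicate block called 300 genes in Villin, 0 in the difference and 685 between the WT groups, and with crossed numbers in AhCre, an alternative chosen after seeing the data, 46, 0 and 373, and 48 on average. The replicate block turned the difference to -0.0114 for Reg1 (-0.0114 crossed), 0.441 for Reg3a (0.441 crossed) and -0.0286 for Reg4 (-0.0284 crossed). limma-voom gave 0.40 for Reg3a.

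Signs also changed with a library left out. The difference ranged from -0.32 to 1.095 for Reg1, -1.26 to 2.18 for Reg3a and -0.17 to 2.55 for Reg3b. In AhCre, Lcn2 ranged from -1.14 to 0.0377 and Reg3b from -0.20 to 0.0242. In Villin, Reg3b ranged from -2.63 to 0.0832, Reg4 from -0.29 to 0.80 and Pigr from -0.12 to 0.55. On average Pigr ranged from -0.16 to 0.18 and S100a8 from -0.41 to 1.69, and for the WT groups Reg4 ranged from -0.26 to 0.75. Libraries of 1 per arm are assumed to vary like the other groups. The floor of 3 counts covers counting error only, whereas the SDs and SEs include the spread between libraries. Lcn2, Reg2 and Reg3d had few counts.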

Other observations

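Absorptive and tuft cell genes rose in the Villin KO libraries. In Villin, edgeR called 6.21% of all tested genes, with a median log2 fold change of -0.18 over all genes. Of 15 absorptive enterocyte genes 9 rose and 0 fell there, with a median log2 fold change of 1.34. Their summed level was 35353, 22171 and 36580.0 CPM in Villin WT and 72655 and 50714 CPM in Villin KO. In AhCre 0 of 15 passed (0.00615% of all tested genes called) and the median was -0.07. The same 9 included the sodium-glucose transporter Slc5a1 (2.44 in Villin, edgeR adjusted p = 0.00774, and -0.33 in AhCre). All 10 tuft cell genes rose in Villin, with a median of 4.30, and 0 passed in AhCre, with a median of 2.52, in the edgeR fit of all libraries. Tuft genes summed to 55.2 to 71.4 CPM in Villin WT and to 2050.3 CPM in Villin KO 1 and 306 CPM in Villin KO 2. Of these KO libraries, the one with the higher sum had the lower Reg3a, Reg3b and Reg3g. In AhCre the tuft genes summed to 128 and 142 CPM in WT and to 771 and 684 CPM in KO. There Reg3b and Reg3g were nearly level and Reg3a was lower in KO. A link between tuft and Reg genes was not tested.

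Of 10 crypt base stem cell genes 3 fell in Villin (median -0.89), where 6.21% of all tested genes were called, and 0 passed in AhCre. Among the 3 was the Wnt-dependent receptor Lgr5 at -1.40 (edgeR adjusted p = 0.0380). Of 12 goblet cell genes 1 rose in Villin, a share near that of all tested genes. It was the chloride channel regulator gene Clca1 at 1.90 (edgeR adjusted p = 0.0390). Of 21 enteroendocrine genes 1 fell there, the transcription factor Nkx2-2 at -5.84 (edgeR adjusted p = 0.0434). Nkx2-2 had just 4 or 5 counts per WT library of this driver, while each KO library held 0. The size of its fold change therefore rests on few counts. Of the 10 tested plasma and B cell genes 0 passed in either driver, and the transcripts Igha, which encodes the heavy chain of the antibody that PIGR carries, and Igkc had log2 fold changes of 1.19 and 0.78 in Villin and 1.04 and 0.53 in AhCre.

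Of 9 genes of the proximal small intestine 1 fell in Villin, where 6.21% of all tested genes were called. It was the iron exporter Slc40a1 (-2.16, edgeR adjusted p = 0.0367). Of 10 distal genes 0 passed in either driver; the ileal bile acid binding protein gene Fabp6 stood at -1.96 in Villin and 0.31 in AhCre.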
